A study of Mus musculus with 15 samples.

Results

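The genes described here are 6 S100 calcium-binding proteins, S100a8, S100a9, S100a4, S100a6, S100a10 and S100a11, of 19938 genes measured on 15 arrays of mouse liver. Each gene was read from a probe set annotated with its symbol alone, and for S100a11, which had a pair of such probe sets, from the one with the higher mean. The set was chosen by the wild-type DEHP difference: it was taken up because S100a8 was higher with DEHP in wild-type liver while the other neutrophil markers were not. The wild-type DEHP values that led to this choice are therefore given as a description, without a test, for all 6 genes.

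The mice were males aged 7.5 months (give or take 2.5 weeks), and each array came from 1 mouse. Wild-type mice (129S1/SvlmJ) and PPARα-null mice (129S4/SvJae-Pparatm1Gonz/J) were kept on a 129/Sv background, so genotype and substrain cannot be told apart. DEHP, di(2-ethylhexyl) phthalate, is a plasticizer that acts as a peroxisome proliferator, and PPARα is the nuclear receptor through which such compounds act in rodent liver. Corn oil alone went to 4 wild-type and 4 null mice, and DEHP in corn oil, at 1150 mg per kg body weight per day, to 4 wild-type and 3 null mice. All received 4 daily doses by gavage. Nothing in the labels says how animals were housed or processed together, so p-values measure the spread between these mice.

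S100 proteins are small proteins with EF-hand motifs that bind calcium and then bind partner proteins. S100A8 and S100A9 form a heterodimer, calprotectin, that is abundant in neutrophils and monocytes and is released as an alarm signal. S100A4 and S100A6 are found in leukocytes, fibroblasts and other motile cells, and S100A10 and S100A11 bind annexins at membranes. Most S100 genes of the mouse lie together in the genome.

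In the RefSeq annotation all 6 genes lay on chromosome 3. S100a8 and S100a9 were direct neighbours among protein-coding genes, as were S100a11 and S100a10. S100a5 lay between S100a4 and S100a6, S100a7a lay between S100a6 and S100a8, and 56 protein-coding genes separated S100a9 from S100a11. RefSeq promoter sequences (build GRCm38.p6) were matched for 5 of the 6, with no entry for S100a10. The 250 bases before the gene start are shown for S100a8 and S100a9, neighbours with unlike values under DEHP, and for S100a4 and S100a11, one gene from each of the other pairs. They are written 5′ to 3′ on the strand of the gene. Capitals mark matches on either strand to a TATA box (TATAAA), a C/EBP site (TTGCNNAA), an AP-1 site (TGANTCA) or a nuclear receptor half-site (AGGTCA).

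S100a8, chr3:90668821-90669070, plus strand: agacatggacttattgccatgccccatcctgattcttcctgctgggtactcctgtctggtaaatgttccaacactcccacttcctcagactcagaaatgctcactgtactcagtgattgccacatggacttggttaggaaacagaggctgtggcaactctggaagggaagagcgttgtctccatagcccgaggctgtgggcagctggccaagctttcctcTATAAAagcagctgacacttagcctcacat

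S100a9, chr3:90695722-90695971, minus strand: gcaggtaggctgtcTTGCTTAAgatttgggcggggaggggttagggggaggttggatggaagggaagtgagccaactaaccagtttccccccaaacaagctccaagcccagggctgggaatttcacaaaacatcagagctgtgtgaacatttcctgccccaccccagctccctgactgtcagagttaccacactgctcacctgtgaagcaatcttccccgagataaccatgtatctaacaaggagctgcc

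S100a4, chr3:90603520-90603769, plus strand: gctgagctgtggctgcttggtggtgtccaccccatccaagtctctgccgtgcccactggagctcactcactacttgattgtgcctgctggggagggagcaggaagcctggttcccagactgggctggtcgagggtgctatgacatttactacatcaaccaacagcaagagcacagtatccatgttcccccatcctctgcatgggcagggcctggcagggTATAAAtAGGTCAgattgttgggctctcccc

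S100a11, chr3:93520246-93520495, plus strand: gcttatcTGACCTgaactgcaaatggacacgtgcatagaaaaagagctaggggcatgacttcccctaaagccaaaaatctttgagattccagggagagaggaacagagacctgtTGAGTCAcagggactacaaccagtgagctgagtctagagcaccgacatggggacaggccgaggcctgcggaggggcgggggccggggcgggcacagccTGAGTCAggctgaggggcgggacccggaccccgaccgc

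S100a8 held a TATA box 30 bases before its start and none of the other motifs searched, while the S100a9 window had no TATA box and a C/EBP match starting at base -236. S100a4 held a TATA box at -31 and a half-site at -24. S100a11 had 2 AP-1 matches, at -136 and -38, and a half-site on the opposite strand at -243. The window of S100a6 held no match. A STAT site (TTCNNNGAA) and a direct repeat of the half-site with 1 base between (AGGTCANAGGTCA) were absent from all 5 windows. Of 32851 promoters in the table, 12.4% held the TATA box, 9.56% the C/EBP site, 6.75% the AP-1 site, 14% the half-site, 7.02% the STAT site and 0.0335% the direct repeat. These matches are letters in a window and say nothing of what binds there.

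The arrays were alike in scale, with a median intensity of 44.4 to 47.5 and a correlation of 0.988 to 0.992 between arrays of a group. The hepatocyte markers Alb, Apoa1, Ttr, Cps1, Cyp2e1, Hnf4a and Asgr1 all lay at or above the 97.1th percentile of probe sets. Ppara, the deleted gene, was lower in null than in wild-type corn oil mice by -0.69 ± 0.12 (log2, standard error; limma adjusted p = 0.00645), and it is not known here which part of the gene its probe set covers. Intensities are given as log2 throughout, animals carry their label number after WT or KO, and a difference is called only where limma's adjusted p over all 19938 genes was below 0.05. Brightness depends on the probe set, so levels are compared between mice and never between genes. The probe set of S100a10 was bright (97.5th percentile of all probe sets), those of S100a11 and S100a8 stood at the 70.1th and 55.2th, and those of S100a9, S100a6 and S100a4 were dim (42.7th, 41.9th and 25.2th).

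S100a8, the smaller calprotectin subunit, was higher with DEHP in every wild-type mouse and its mean was highest in that group. Wild-type corn oil mice WT-52, WT-53, WT-54 and WT-55 read 4.79, 5.54, 4.59 and 5.04. The wild-type DEHP mice WT-56, WT-57, WT-58 and WT-59 read 6.65, 6.94, 6.38 and 7.10. The lowest DEHP mouse thus stood above the highest control, and the difference of the means was 1.78 ± 0.24 (3.43-fold, n = 4 against 4).

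In null mice S100a8 took the same direction with overlapping groups. The null corn oil mice KO-115, KO-116, KO-117 and KO-118 read 5.94, 4.93, 5.54 and 5.08, and the null DEHP mice KO-121, KO-122 and KO-123 read 5.87, 6.71 and 6.20. A single control, KO-115, reached above the lowest DEHP mouse. The difference was 0.89 ± 0.26 (1.85-fold, 95% interval 0.33 to 1.45, adjusted p = 0.144 by limma) and did not pass the test. Without KO-115 it was 1.08, and without KO-122, the highest DEHP mouse, it was 0.66. The adjusted p ran from 0.0881 to 0.469 over the fits that left out 1 mouse each. The order of the group means was wild-type DEHP, null DEHP, null corn oil and wild-type corn oil, and only the last 2 lay closer than the spread within groups (SD 0.41). Null DEHP mice read 0.51 ± 0.26 below wild-type DEHP mice and null corn oil mice 0.38 ± 0.24 above wild-type corn oil mice. In both of these genotype comparisons the groups overlapped, and neither was tested because they reuse the arrays from which S100a8 was chosen.

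S100a9, the partner subunit of calprotectin, stayed close to 5 in all 4 groups. The wild-type corn oil mice WT-52 to WT-55 read 5.15, 4.89, 5.01 and 4.98, and the wild-type DEHP mice WT-56 to WT-59 read 5.15, 5.19, 5.16 and 5.12. Null corn oil mice ran from 5.15 to 5.35 and null DEHP mice from 4.78 to 5.23. The groups overlapped in both genotypes, with a difference of 0.15 ± 0.09 in wild-type mice and -0.17 ± 0.09 in null mice (95% interval -0.37 to 0.02, adjusted p = 0.477). The means of all 4 groups lay within 0.22 of each other, and no neighbours in their order differed by more than the spread within groups (SD 0.13). Its probe set was dim, and how much of its signal was background is not known here.

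**Figure D1:**
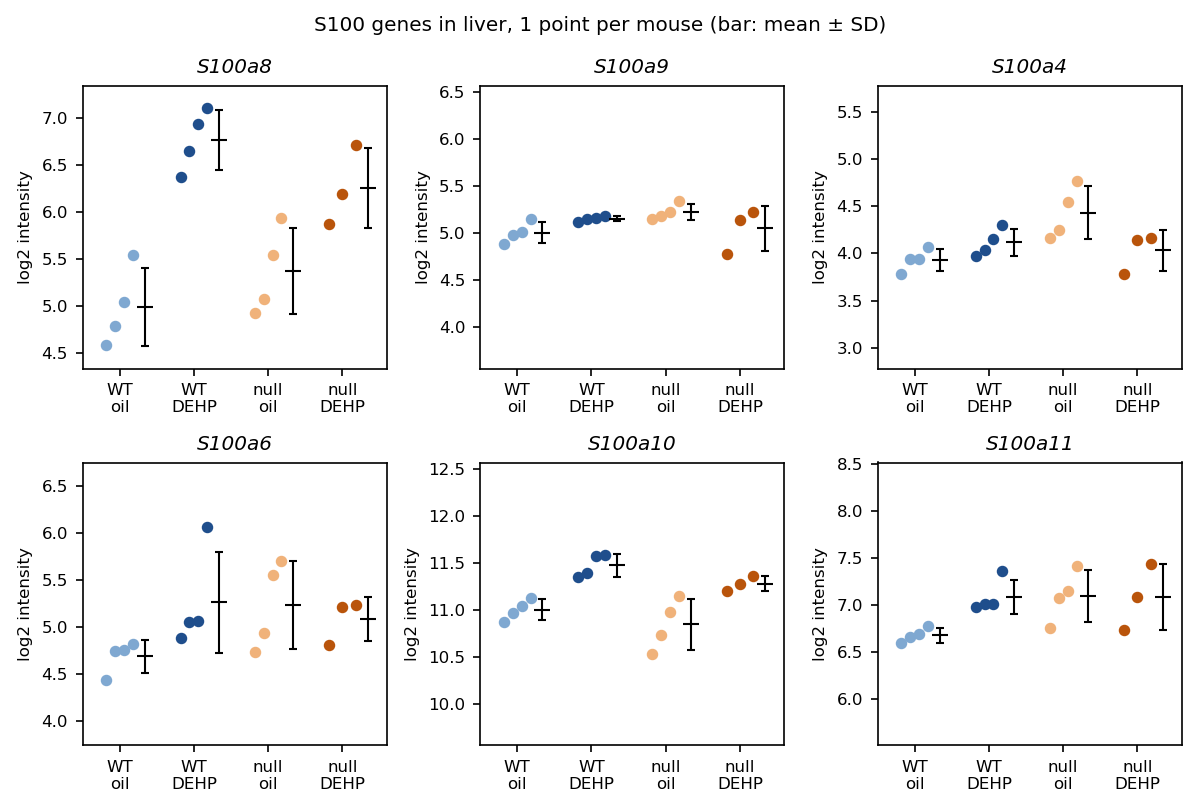
Log2 intensity of the 6 S100 genes (one panel each) in wild-type (WT) and PPARα-null mice given corn oil or DEHP; each point is 1 mouse, and the bars give mean ± SD of n = 4, 4, 4 and 3 mice. All panels span the same number of log2 units. S100a8 lies above 6.3 in all wild-type DEHP mice and at or below 5.54 in their controls, while S100a9 stays between 4.78 and 5.35.

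Neutrophil markers are given beside S100a8 because the genes were chosen on that contrast. S100a8 was picked as the one neutrophil marker higher with DEHP in wild-type liver, so the low wild-type differences of the others were fixed by the choice and are a description. Of 18 listed markers 16 were measured, among them the granule enzymes Elane, Mpo and Prtn3, the granule proteins Ltf, Camp and Ngp, the surface protein Ly6g and the receptor genes Cxcr2 and Csf3r. In wild-type mice 0 of the 16 had groups without overlap (11.9% of all genes did, from which nothing is read here), and their differences with DEHP ran from -0.17 to 0.47 with a median of 0.06. In null mice none was called by limma, where 0.471% of all genes were. An unadjusted p below 0.05 was found for 2 of the 16, against 12.3% of all genes. The differences in null mice ran from -0.72 to 0.18 with a median of -0.04. The summed intensity of the 16 markers was 494 to 520 in wild-type corn oil mice, 485 to 588 in wild-type DEHP mice, 498 to 678 in null corn oil mice and 484 to 584 in null DEHP mice. None of the markers was at 0 on any array, but 14 of the 16 were at or below the 50.1th percentile of probe sets, and Ly6g, Ngp, Mmp8 and Cxcr2 were at or below the 21.5th. The mean log2 of the 16 was 4.71 to 4.74 in the wild-type corn oil mice. Of the wild-type DEHP mice, WT-57 (4.95) and WT-58 (4.85) stood above all of these controls, and WT-56 (4.68) and WT-59 (4.67) below them. S100a8 was highest in WT-59 and WT-57 and lowest in WT-58, and the part of neutrophil RNA in it was not tested. In bulk liver, fewer cells of a type and less RNA per cell cannot be told apart.

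**Figure D2:**
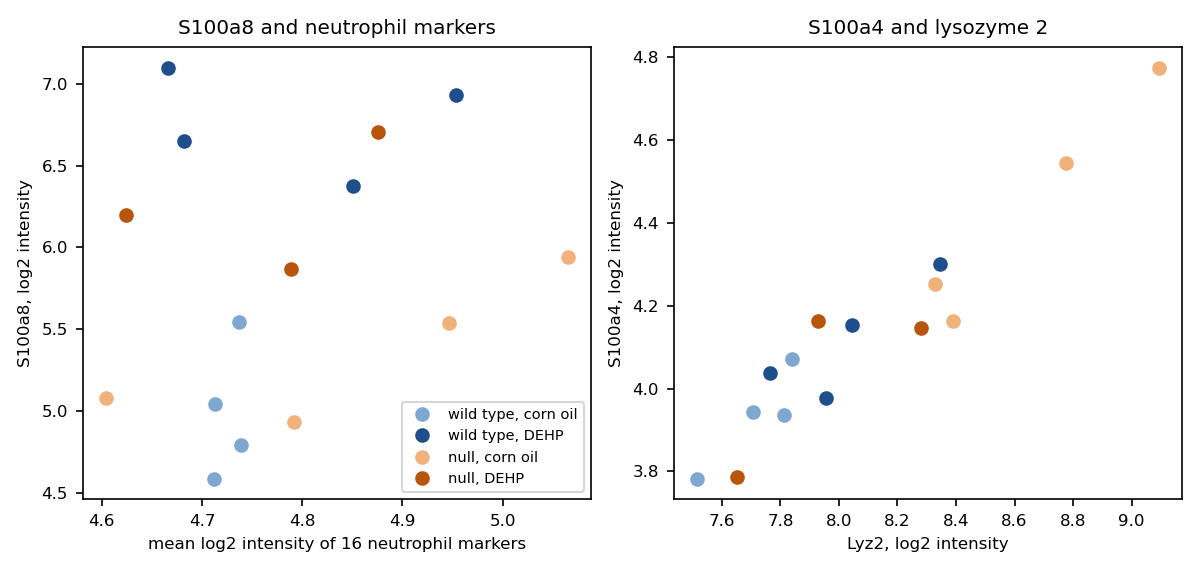
Left, S100a8 against the mean log2 intensity of 16 neutrophil markers; right, S100a4 against Lyz2, the lysozyme of macrophages and neutrophils; each point is 1 of 15 mice, coloured by group. The 4 wild-type DEHP mice lie above the others in S100a8 at neutrophil means of 4.67 to 4.95, save for null DEHP mouse KO-122 at 6.71, and S100a4 climbs with Lyz2 across groups.

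S100a4, which binds non-muscle myosin and is known from fibroblasts and macrophages, was highest in null mice given corn oil. Those mice, KO-115 to KO-118, read 4.54, 4.25, 4.77 and 4.16, against 3.78, 3.94, 3.94 and 4.07 in the wild-type corn oil mice WT-52 to WT-55. The groups did not overlap, and the difference was 0.50 ± 0.13 (1.41-fold, 95% interval 0.23 to 0.77), with an adjusted p of 0.0727 by limma, just short of the threshold. Without KO-118 it was 0.59 and passed (adjusted p = 0.0301), and over the other fits that left out 1 mouse or changed a setting it did not. This comparison shares the wild-type corn oil arrays with the one that led to the choice of genes. The null DEHP mice KO-121, KO-122 and KO-123 read 4.15, 4.16 and 3.79, a difference of -0.40 ± 0.13 from null corn oil (95% interval -0.69 to -0.11, adjusted p = 0.205), with KO-122 level with the lowest control. The other 3 groups had means within the spread of their neighbours. In wild-type mice the DEHP values of 4.15, 4.30, 3.98 and 4.04 overlapped the controls, at a difference of 0.18 ± 0.12.

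S100a6, a calcyclin that binds annexin A11 and the ubiquitin ligase adaptor CacyBP, varied more between mice of a group than any other member except S100a8 (SD within groups 0.40 against 0.41). The wild-type corn oil mice read 4.44, 4.82, 4.76 and 4.75, and the wild-type DEHP mice read 5.05, 6.06, 4.88 and 5.06. These groups did not overlap, at a difference of 0.57 ± 0.24 (1.49-fold), but WT-57 stood a full log2 unit above its group. Without WT-57 the difference was 0.31. Null corn oil mice split into KO-115 and KO-117 at 5.55 and 5.70 and KO-116 and KO-118 at 4.94 and 4.73, and null DEHP mice read 5.24, 5.21 and 4.82. DEHP in null mice gave -0.14 ± 0.26 (95% interval -0.69 to 0.40, adjusted p = 0.882), and null against wild type in corn oil gave 0.54 ± 0.24 (adjusted p = 0.371).

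S100a11, which binds annexin A1, had its lowest mean in wild-type corn oil mice, and the other 3 means lay within 0.02 of each other. Those mice read 6.78, 6.66, 6.70 and 6.60, and the wild-type DEHP mice read 6.98, 7.36, 7.01 and 7.01, again with WT-57 highest. The groups did not overlap, at a difference of 0.41 ± 0.14 (1.33-fold). Null corn oil mice read 7.41, 7.07, 7.15 and 6.76, and null DEHP mice read 7.09, 7.44 and 6.73. Their means, 7.10 and 7.09, differed by -0.01 ± 0.16 (95% interval -0.34 to 0.32, adjusted p = 0.987). Null corn oil exceeded wild-type corn oil by 0.42 ± 0.14 (adjusted p = 0.215), with KO-118 inside the wild-type range. The other probe set of S100a11 gave 0.46 for DEHP in wild-type mice, -0.01 for DEHP in null mice and 0.46 for genotype in corn oil.

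S100a10, the light chain that binds annexin A2, read higher with DEHP in both genotypes, by similar amounts. The wild-type corn oil mice read 11.13, 11.05, 10.96 and 10.87, and the wild-type DEHP mice read 11.35, 11.39, 11.57 and 11.58. The groups did not overlap, at a difference of 0.47 ± 0.11 (1.39-fold). Null corn oil mice read 11.15, 10.73, 10.98 and 10.54, and null DEHP mice read 11.20, 11.36 and 11.28. These groups did not overlap either, with the lowest DEHP mouse just above KO-115. The difference in null mice was 0.43 ± 0.12 (1.35-fold, 95% interval 0.18 to 0.68), and at an adjusted p of 0.109 by limma it did not pass the test. Among only the 9860 genes with a mean log2 of at least 6 it did pass (adjusted p = 0.0472), and over all alternatives the difference stayed between 0.33 and 0.53. The null difference was smaller than the wild-type one by 0.04 ± 0.16, and S100a10 read 0.16 ± 0.11 lower in null than in wild-type corn oil mice (adjusted p = 0.637).

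In wild-type mice 4 of the 6 genes (S100a8, S100a6, S100a11 and S100a10) were higher with DEHP without overlap of the groups, a state found in 6.1% of all 19938 genes, in the contrast from which they were chosen, so nothing is read from that count. The median difference over all 6 was 0.44 against -0.01 over all genes, and nothing is read from it either, as it comes from that contrast. In null mice 1 of the 6, S100a10, was higher without overlap, against 5.57% of all genes (9.99% in either direction), and the median over the 6 was -0.08. By limma 0 of the 6 were called in null mice (3 had an unadjusted p below 0.05, S100a8 and S100a10 upward and S100a4 downward), where 0.471% of all genes were called and 12.3% had such an unadjusted p. In null against wild-type corn oil mice 0 of the 4 genes tested were called (3 had an unadjusted p below 0.05), where 1.19% of all genes were called and 12% had such a p. Of the 6, only S100a4 was higher there without overlap, against 4.06% of all genes. S100a8 and S100a9 were left out of the corn oil test, and S100a9 read 0.22 ± 0.09 higher in null than in wild-type corn oil mice, with overlapping groups. Under DEHP 0 of the 6 separated the genotypes without overlap, where 20.5% of all genes did, and S100a9 read -0.10 ± 0.09 there. The difference between the genotypes in the response to DEHP, null minus wild type, read -0.89 ± 0.36 for S100a8, -0.32 ± 0.13 for S100a9, -0.58 ± 0.18 for S100a4, -0.72 ± 0.35 for S100a6 and -0.42 ± 0.21 for S100a11. These were not tested, since they contain the wild-type contrast.

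**Figure D3:**
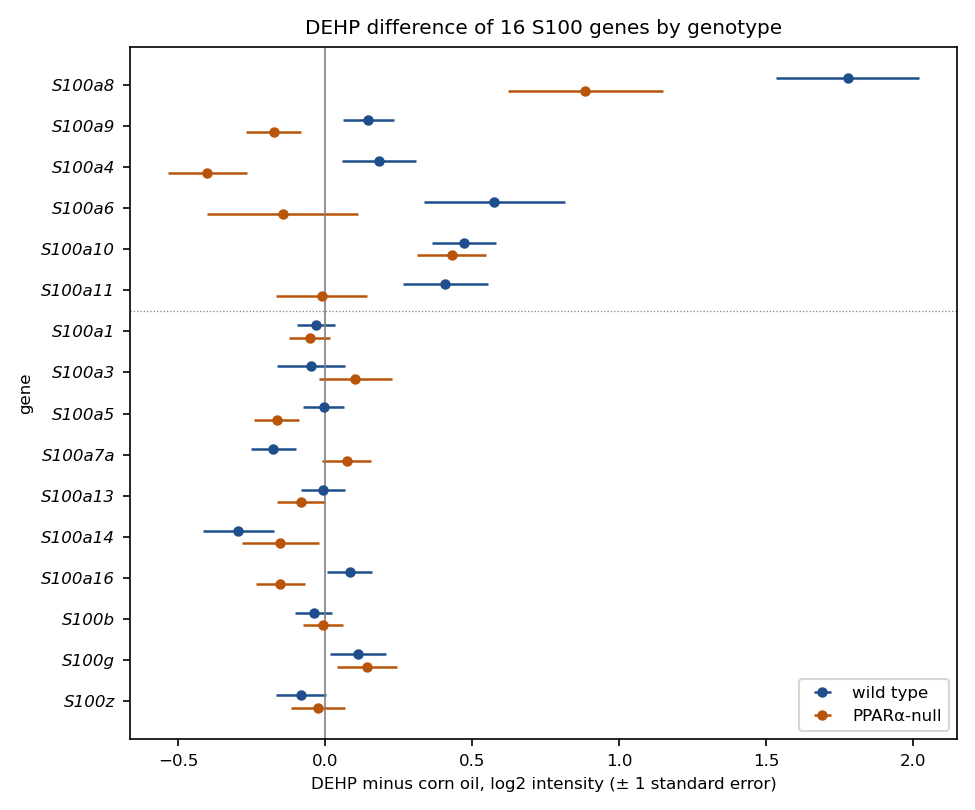
DEHP minus corn oil in log2 intensity for 16 S100 genes in wild-type (blue) and PPARα-null (orange) mice, with bars of ± 1 standard error; the 6 members stand above the dotted line. S100a8 and S100a10 lie above 0 in both genotypes, S100a9, S100a4, S100a6 and S100a11 lie above 0 in wild type and at or below it in null mice (a difference that was not tested), and the 10 other S100 genes lie between -0.30 and 0.14.

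The 10 other S100 genes of the list were measured as a family background. None was called with DEHP in either genotype by limma, where 3.86% of all genes in wild-type and 0.471% in null mice were. An unadjusted p below 0.05 was found for 2 of 10 in wild-type and 1 of 10 in null mice, against 16.8% and 12.3% of all genes. Their differences ran from -0.30 to 0.11 in wild-type and from -0.16 to 0.14 in null mice, with medians of -0.04 in both. S100a14 gave the lowest value in wild-type mice, -0.30 ± 0.12 (adjusted p = 0.227), and S100a7a read -0.18 ± 0.08 there with groups that did not overlap (adjusted p = 0.254). S100a1 and S100a13, which lie in the same gene cluster, read -0.03 and -0.01. S100a16 was lower in null than in wild-type mice under DEHP (-0.33 ± 0.08, adjusted p = 0.0154, where 5.61% of all genes were lower), the 1 called gene of the 10 in any comparison. S100a2, which was not on the list, read -0.05 with DEHP in wild-type mice and 0.17 in null ones.

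The partner proteins were followed next. Anxa2, which forms a tetramer with S100A10, read 6.48, 6.49, 6.54 and 6.62 in wild-type corn oil mice and 6.85, 7.25, 7.20 and 6.93 with DEHP, without overlap (0.52 ± 0.17, adjusted p = 0.109). In null mice the values ran from 7.62, 6.79, 7.18 and 6.64 in corn oil to 6.72, 6.79 and 6.35 with DEHP (-0.44 ± 0.18, adjusted p = 0.327). S100a10 and Anxa2 had differences of the same sign in wild-type mice and of opposite sign in null mice, where neither gene was called. For Anxa2 the genotypes differed in the response by -0.96 ± 0.25, which missed the threshold (adjusted p = 0.0759). Anxa1, the partner of S100A11, read 0.30 ± 0.15 in wild-type (adjusted p = 0.332) and -0.28 ± 0.16 in null mice (adjusted p = 0.529). Of all 12 partners, which also included Myh9, Ahnak and Cacybp, 0 were called in either genotype. Of all genes 3.86% were called in wild-type and 0.471% in null liver. An unadjusted p below 0.05 was found for 2 partners in wild-type and 2 in null liver, against 16.8% and 12.3% of all genes. Without overlap 4 of the 12 were higher in wild-type mice, against 6.1% of all genes, and 1 in null mice, against 5.57%.

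Of 14 listed receptors and signalling genes of S100A8/A9, 12 were measured. With DEHP in wild-type liver limma called 2 of them higher and 0 lower, where 2.29% of all genes were called higher. An unadjusted p below 0.05 was found for 6 of the 12 there, against 16.8% of all genes. Without overlap of the groups 2 were higher (6.1% of all genes) and 3 lower, where 11.9% of all genes separated in either direction. Bsg, which encodes basigin, a transmembrane glycoprotein that binds S100A9, rose by 0.40 ± 0.08 (1.32-fold, adjusted p = 0.00723), a call kept whichever of the 8 mice was left out. Irak1, a kinase downstream of Toll-like receptors, rose by 0.24 ± 0.06 (limma adjusted p = 0.0389). That call failed in 6 of the 8 such fits, with an adjusted p of up to 0.112 without WT-58. Tlr4, the Toll-like receptor for these proteins, read 0.06 (adjusted p = 0.724) and Ager, which encodes the receptor RAGE, -0.16 (adjusted p = 0.186). The Ager groups did not overlap, at 5.805 to 6.017 with DEHP and 6.031 to 6.184 in corn oil. In null mice 0 of the 12 were called, where 0.471% of all genes were. An unadjusted p below 0.05 was found for 2 of them, against 12.3% of all genes. Bsg read 0.34 ± 0.08 there (adjusted p = 0.0774) and the co-receptor gene Cd14 -0.62 ± 0.19 (adjusted p = 0.159). The difference between genotypes for Bsg was -0.06 ± 0.11 (adjusted p = 0.872).

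Genes upstream of S100a8 in inflammation were read from 17 measured cytokines, receptors and transcription factors. By limma 0 of them were called with DEHP in wild-type mice and 0 in null mice, where 3.86% and 0.471% of all genes were. An unadjusted p below 0.05 was found for 2 and 3 of them, against 16.8% and 12.3% of all genes. Stat3 read 0.05 and 0.36 in wild-type and null mice (adjusted p = 0.915 and 0.35), Socs3, its feedback inhibitor, 0.09 and 0.25 (adjusted p = 0.897 and 0.729), and Cebpb, a factor of the acute phase, 0.00 and 0.01. Among 22 acute phase proteins DEHP raised 8 and lowered 0 in wild-type liver, where 2.29% of all genes rose. The largest were the serum amyloids Saa2 (5.66 ± 0.62, adjusted p = 9.3e-05) and Saa1 (4.71 ± 0.58, adjusted p = 0.000215) and the iron-binding lipocalin Lcn2 (3.81 ± 0.59, adjusted p = 0.00155). In null liver only Orm1 (0.56 ± 0.10, adjusted p = 0.0329) and Orm2 (1.75 ± 0.36, adjusted p = 0.0442), which encode orosomucoids, passed the test, where 0.16% of all genes rose. Saa2 read 1.96 ± 0.67, Saa1 1.86 ± 0.63 and Lcn2 1.67 ± 0.64 there (adjusted p = 0.212, 0.205 and 0.276). An unadjusted p below 0.05 was found for 14 of the 22 in null liver, against 12.3% of all genes. In wild-type liver it was found for 13 of the 22, against 16.8% of all genes. The median difference over the 22 was 0.34 in null against 0.35 in wild-type liver. The Orm1 and Orm2 calls were lost in 4 and 6 of 7 fits without 1 mouse. Their limma adjusted p rose to 0.112 and 0.232 without KO-122, the null DEHP mouse with the highest S100a8. In null against wild-type corn oil mice 1 of the 17, Jun, and 1 of the 22, Saa3, were called higher, where 0.642% of all genes were. Jun kept its call in all 8 fits without 1 mouse, and Saa3 lost it in 6. Higher without overlap were 5 of the 17 and 5 of the 22, against 4.06% of all genes.

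Genes whose log2 values followed a member most closely over the 15 arrays differed from member to member. For S100a8 they were Top1mt, the mitochondrial topoisomerase, Ttc3, a ubiquitin ligase, and Abhd2, a hydrolase (Pearson r = 0.93, 0.90 and 0.89; Spearman rho = 0.90, 0.91 and 0.89). For S100a4 they were the leukocyte genes Lyz2 (r = 0.96, rho = 0.92), Lgals3 (r = 0.91), which encodes galectin-3, and Cyba (r = 0.90), a subunit of the phagocyte oxidase. For S100a6 they were Cd34, Lsp1 and Fermt3 (r = 0.88, 0.87 and 0.85), all genes of blood or vascular cells. S100a11 went with Vim, the intermediate filament vimentin (r = 0.92, rho = 0.95), and with the proliferation genes Top2a and Esco2 (r = 0.89 and 0.88). S100a10 went with Mrap, Gstm4 and Gda (r = 0.92, 0.92 and 0.91), and S100a9 with Syt5, Tacc3 and Prdm1 (r = 0.85, 0.84 and 0.83, but rho = 0.51, 0.77 and 0.57). The arrays fall into 4 groups, and the genes were picked as the closest of all measured, so these are descriptions with no test.

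Group means were then removed, so that only differences between mice of a group counted. Lyz2 remained the gene closest to S100a4 (r = 0.91), Cd34 the closest to S100a6 (r = 0.93) and Vim the closest to S100a11 (r = 0.94). S100a8 now went with Stt3a, Fam118a and Tubb5 (r = 0.88, 0.87 and 0.85). S100a10 went with Dusp14, Magea10 and Nek6 (r = 0.925, 0.902 and 0.881), and S100a9 with Fgf6, Cpxm1 and Hoxd10 (r = 0.891, 0.878 and 0.871). After Vim, S100a11 was closest to Flna and Sstr4 (r = 0.93 and 0.921). These genes too were picked as the closest of all measured, with no test. Sstr4 read the same value, 5.547, on several arrays. Fgf6, Cpxm1, Hoxd10 and Magea10 were dim, below the lowest array median intensity (44.4) on every array. So were Syt5, Tacc3, Prdm1, Top2a and Esco2, named above. Among the members themselves S100a4 and S100a6 were the closest pair within groups (r = 0.86, rho = 0.85), followed by S100a9 and S100a11 (r = 0.78) and S100a6 and S100a11 (r = 0.70). The neighbours S100a8 and S100a9 were the least alike (r = 0.06, rho = -0.02). Over the log2 values themselves S100a8 was closest to S100a10 (r = 0.83, rho = 0.88), against r = 0.55 and rho = 0.43 within groups. Those log2 values hold the group differences, among them the wild-type DEHP difference used for the choice. Over them S100a10 and S100a4 gave the lowest value (r = -0.18).

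Of the leukocyte and matrix markers tested, Lyz2, Ccr2 and Col1a2 were called between null and wild-type corn oil mice. S100a4 itself was not (limma adjusted p = 0.0727). Lyz2 was higher in null mice by 0.93 ± 0.17 (1.90-fold, adjusted p = 0.00894), and its 4 null values, 8.33 to 9.09, lay above all wild-type control values, 7.51 to 7.84. Where 0.642% of all genes were higher, 2 of 14 monocyte and macrophage markers, Lyz2 and the chemokine receptor gene Ccr2 (0.61 ± 0.14, adjusted p = 0.0423), were higher and 0 lower, with a median of 0.28 against -0.01 over all genes. The 16 neutrophil markers had a median of 0.03, with the shared leukocyte integrin Itgb2 at 0.79 ± 0.14, and are given without a test because the choice of genes used their wild-type corn oil values. Of 12 stellate cell and fibroblast markers 1 was called higher, the collagen gene Col1a2 (0.78 ± 0.18, adjusted p = 0.0474), with a median of 0.59. The lowest difference was 0.10 in the stellate list and 0.04 in the macrophage list. An unadjusted p below 0.05 was found for 9 of the 12 and 9 of the 14, against 12% of all genes. Higher without overlap were 7 of the 12 and 5 of the 14, against 4.06% of all genes. Ccr2 was dim, with intensities of 9.18 to 21.95 in these corn oil mice against array medians of 44.4 to 47.5. Ccr2 lost its call in 5 and Col1a2 in 7 of 8 fits without 1 mouse, while Lyz2 kept its call. Their summed intensities, with 0 markers at 0, were 3663 to 4582 in null against 3080 to 3579 in wild-type corn oil mice for the macrophage list, and 3630 to 5131 against 2875 to 3203 for the stellate list. Their part in the S100a4 values was not tested.

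With DEHP in null mice Lyz2 read -0.69 ± 0.18 (adjusted p = 0.0959) and S100a4 -0.40, both without passing the test. By limma 0 of the 14 macrophage markers and 0 of the 12 stellate markers were called there, where 0.471% of all genes were. An unadjusted p below 0.05 was found for 4 and 1 of them, against 12.3% of all genes. In wild-type mice 0 macrophage markers were called with DEHP (0 with an unadjusted p below 0.05). Of the 12 stellate markers 1, Reln, was called lower, and 2 had an unadjusted p below 0.05. Of all genes 3.86% were called there and 16.8% had such a p. The Reln call was kept whichever of the 8 mice was left out (limma adjusted p of up to 0.0316). Lyz2 read 0.31 ± 0.17 in that comparison (adjusted p = 0.384). WT-57, the mouse with the highest S100a6 and S100a11 among wild-type DEHP mice, also had the highest mean of 5 biliary markers, 6.05, where the other 14 mice ran from 5.16 to 5.58. Its mean of 7 lymphocyte markers, 4.94, was the highest of all 15 mice too (the other wild-type DEHP mice read 4.54 to 4.64), and its neutrophil mean was the highest of the 8 wild-type mice. The summed intensity of these 5 markers was 210 to 454 in wild-type DEHP mice and 211 to 232 in their controls, with 0 markers at 0. The part of these markers in the 2 genes was not tested, and without WT-57 the differences were 0.31 for S100a6 and 0.32 for S100a11.

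**Figure D4:**
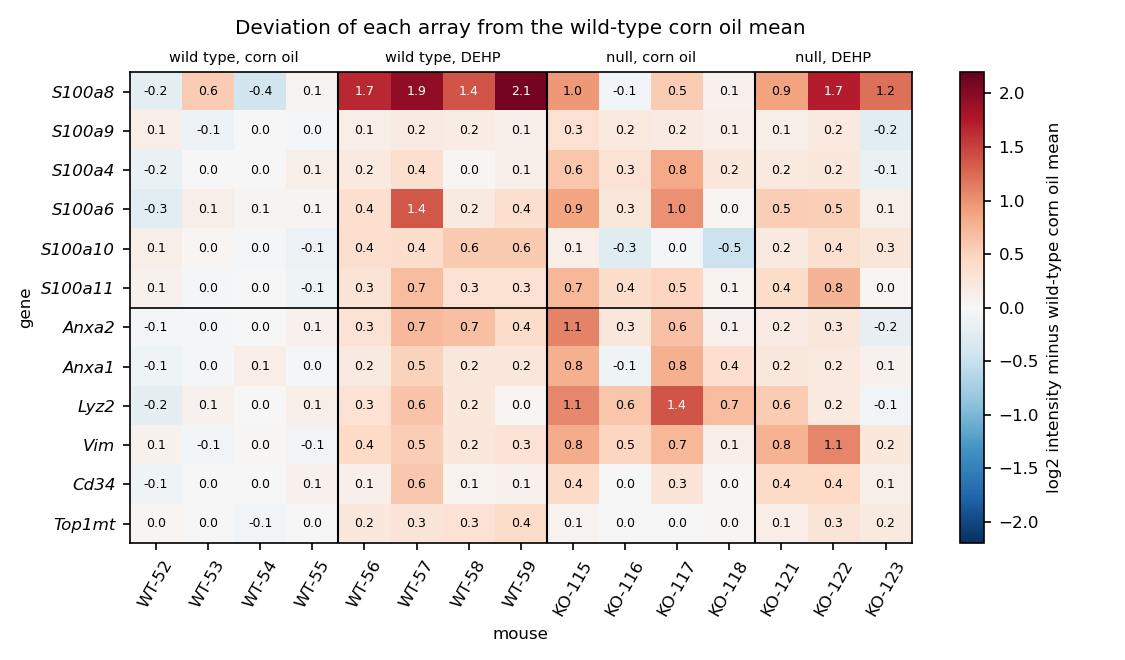
Deviation of each mouse from the wild-type corn oil mean in log2 intensity (colour and printed value) for the 6 members and for Anxa2, Anxa1, Lyz2, Vim, Cd34 and Top1mt; columns are the 15 mice by group. The S100a8 row is raised in all wild-type DEHP mice, and KO-115 and KO-117 carry the highest values of S100a4 and Lyz2.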

How the data were processed

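Liver RNA of 15 mice was measured on 1 array each. Per the labels' protocols, 300 ng of total RNA was labelled with the Affymetrix WT cDNA kit. The authors deposited linear intensity values, already on a common scale between arrays. How they were background-corrected and normalized cannot be told from the labels, and no scanner files, scan dates or batches were used.

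Log2 was taken of each value with no further normalization. The platform annotation gave 1 gene symbol for 21789 of the 35494 probe sets, several for 1621 and none for 12084. The probe set with the highest mean was kept for each of 19938 genes. Group means over the 15 arrays were modelled in limma 3.58.1 (R 4.3.3), with moderated tests (residual degrees of freedom 11, prior 4.68). The Benjamini-Hochberg adjustment ran over all genes, with calls at 0.05. Standard errors and 95% intervals are limma's, and the intervals are not adjusted for the number of genes. The fit was tested on simulated data. Tables and figures were made in Python 3.11.15 with pandas 2.3.3 and matplotlib 3.10.9.

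The members and gene lists were chosen with earlier results of these data known, so their counts are descriptions. No p is given for the members in comparisons that use wild-type DEHP arrays, nor for S100a8, S100a9 and the neutrophil markers between the corn oil groups. By rule the text could name the members, the 3 genes closest to each over the arrays and within groups, up to 3 called genes of largest difference per list and contrast, Ppara, the S100 family, Anxa1 and Anxa2. Other names (such as Stat3, Socs3, Cebpb, Tlr4, Ager, Cd14 and the neutrophil markers) were chosen after their values were seen. Alternatives were quantile normalization, log2(value + 16), a minimum mean log2 of 6, fits of only 2 groups, averaged probe sets, an intensity trend with a robust prior, and leaving out each array.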

Additional observations from a re-analysis of the deposited data

Results flagged for a closer look

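Of 24 groups of 4 mice examined (6 members, Anxa1 and Anxa2 in 3 groups each), 2 held a mouse far from the others, where chance gives about 1 in 20. Both were wild-type DEHP mouse WT-57, at 6.06 for S100a6, where the other 3 mice read 4.88 to 5.06, and at 7.36 for S100a11, where they read 6.98 to 7.01. The same mouse had the highest means of the biliary and lymphocyte markers.

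Of the genes on the lists other than members and neutrophil markers, 1 differed between genotypes in its response to DEHP. Stab2, a scavenger receptor of sinusoidal endothelium, gave 0.43 more in null than in wild-type mice (limma adjusted p = 0.0234), where 0.898% of all genes differed.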

How the results depend on the processing

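The number of arrays limits every value, and the dim probe sets of S100a4, S100a6 and S100a9 limit theirs further. No paired analysis was possible because the labels number the mice individually and no number is shared between groups. Scanner files were not used here, so background correction and slide could not be varied.

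The 4 members higher without overlap in wild-type mice were 2 among genes with a mean log2 of at least 6, since that filter removed S100a8, S100a9, S100a4 and S100a6, and 4 to 5 with 1 array left out. The count of members called in null mice was 1 with that filter (S100a10, adjusted p = 0.0472), which tests fewer genes, and 0 in all 7 fits with 1 array left out. In null against wild-type corn oil mice the count was 0 to 1 with 1 array left out, the 1 being S100a4 without KO-118 (0.59, adjusted p = 0.0301).

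The 2 listed genes called with DEHP in null mice became 4 with log2(value + 16), 7 with the filter and 0 with only the 2 groups compared, and ran from 0 to 4 with 1 array left out. The cause was not tested for the first, and the filter and the 2-group fit test fewer genes or use fewer samples. Between the corn oil groups the count over all lists was 6, and it ran from 3 to 9 with 1 array left out. That count takes in the neutrophil markers, for which no test is given in this comparison, so nothing is read from it. The 14 listed genes called with DEHP in wild-type mice ran from 10 to 13 with 1 array left out. Over all genes the 94 calls in null mice became 287, 432, 1 and 293 with log2(value + 16), the filter, 2 groups and the intensity trend, and ran from 9 without KO-122 to 168 without KO-116.

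Values of uncalled members near 0 changed sign in null mice: S100a6 ran from -0.311 to 0.012 with 1 array left out (highest without KO-117), and S100a11 from -0.186 to 0.165, with 0.093 without KO-115, 0.006 without KO-117 and 0.165 without KO-123, and 0.001 with quantile normalization. The cause was not tested. No other member changed sign under any alternative run.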
